A study of Saccharomyces cerevisiae with 6 samples.

Results

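A group of 63 yeast array spots is described here whose run-on signal rose between 0 and 30 min after release from G1 arrest while their RNA polymerase II occupancy stayed near its starting value. They are 63 of the 5642 spots with values in both assays at every time point (1.12%). The files hold 6144 spots, of which 502 (8.17%) lacked such values. The rule was read from the measurements themselves. A spot was a member if its log2 ratio of run-on RNA to genomic DNA was at least 1.2 higher at 30 min than at 0 min and if its log2 ratio of immunoprecipitate (IP) to whole-cell extract (WCE) differed by at most 0.25 between the same times. Every hybridization was first centred on its median, so a value of 0 is the middle spot of that hybridization and a change is relative to the other spots, never an absolute amount.

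The cells were Saccharomyces cerevisiae BY4741, a haploid laboratory strain labelled wild type, which per the study's methods carried the plasmid pRS316. All 6 groups came from cultures arrested in G1 with the pheromone alpha factor and then washed. The groups were sampled at 0, 30 and 60 min after the wash by genomic run-on (GRO) and by chromatin immunoprecipitation of the polymerase (RNAp ChIP, RPCC in the labels), with 3 replicates in each group. For GRO at 30 min the description of the sample names replicates 1 and 2 only, but 3 hybridizations were deposited and all were used. Cells were neither sorted nor single, so a value is the average over a culture, and a change in how many cells transcribe a gene cannot be told apart from a change in each cell.

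RNA polymerase II can sit on a gene without making RNA, because it pauses, or because it backtracks and moves its active site off the end of the transcript. GRO permeabilizes the cells and lets engaged enzymes run on for a few minutes with labelled UTP, so the signal reflects active polymerases only. RNAp ChIP pulls down DNA crosslinked to the enzyme whether it is active or not, so the 2 assays together separate a change in the number of polymerases from a change in the share of them that elongates. The files give an array position for each spot and no gene, so members are named below by position (row, column and place within a block, for 4 spots only) or by their rank of 1 to 63 in the size of the GRO rise.

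Some facts of the data set bear on every value. The median intensity of the run-on hybridizations lay between 45.2 and 63.1 at 0 min, between 35.7 and 47.4 at 30 min, and between 93.1 and 197 at 60 min. A hybridization had 85 to 362 spots at 0, which were treated as missing. Run-on RNA was hybridized to filters 1, 3 and 6 at 0 min, to filters 1, 2 and 4 at 30 min, and to filters 5, 6 and 7 at 60 min. The titles of the later pair of RNAp ChIP samples exchange 30 and 60 min relative to their descriptions, and the descriptions were used. Under the titles 86 spots met the rule and 30 of the 63 members were among them, so membership itself depends on this reading. It depends on the denominator too: with the mean genomic and WCE intensity in its place 26 spots met the rule, 8 of them among the 63.

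The rise at 30 min that defined the group was 1.45 in the median and ran from 1.21 to 2.67 on the log2 scale. The 3 hybridizations at 0 min gave a median GRO ratio over the members of -0.82, -1.10 and -0.75, and the 3 at 30 min gave 0.12, 0.43 and 0.76. The medians of the 2 times thus did not overlap, and the members moved from well below the middle spot of the array to above it. In RNAp ChIP the medians were 0.14, -0.03 and 0.02 at 0 min and -0.01, 0.15 and 0.17 at 30 min, which overlap and lie close to the middle spot. Unlike their median run-on signal, the median polymerase occupancy of the members was thus near the middle of the array from the start. Single members were spread over the whole range of occupancy. These values were selected by the rule and were not tested.

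**Figure D1:**
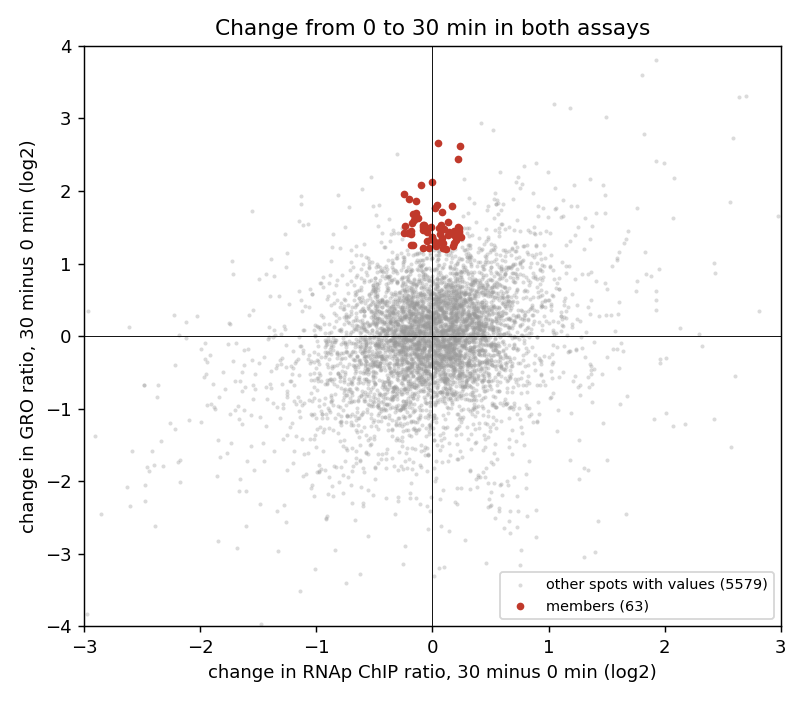
Change in the RNAp ChIP ratio (horizontal axis, log2) against change in the GRO ratio (vertical axis, log2) from 0 to 30 min, each point being 1 spot and the mean of its replicates. The 63 members in red form a block by construction, with GRO changes of 1.21 to 2.67 and RNAp ChIP changes of -0.25 to 0.25, and 40 other spots lie outside the axes.

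A run-on rise of this size was found in 228 of the 5642 spots (4.04%), and the members were the smaller share of them. In 130 of the 228 (57.0%) occupancy rose by more than 0.25 with the run-on signal, in 35 (15.4%) it fell by more than 0.25, and in 63 (27.6%) it stayed within that range. Over all 5642 spots occupancy stayed within the range in 2327 (41.2%) and rose past it in 29.5%. A fall in run-on of at least 1.2 with flat occupancy was seen in 97 spots. The rise itself was of similar size in the 3 groups, with medians of 1.45 in the members, 1.62 where occupancy rose and 1.498 where it fell.

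The thresholds cut through a continuous spread. The member with the smallest rise had 1.21, and the nearest spot outside with flat occupancy had 1.199. The RNAp ChIP changes of the members ran from -0.25 to 0.25, and the nearest spots outside had -0.258 and 0.251. A flat occupancy here means a small difference between means and not a shown absence of change. The 95% interval of the RNAp ChIP difference from limma, the moderated linear model fitted to all spots, had a median half-width of 0.579 (0.329 to 2.13) among the members. That interval lay within 0.5 of 0 in 6 members and within 1 in 52.

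Single replicates give the spread of the rise between hybridizations. The rule set a minimum on the change of their means, so changes mostly above 0 are in large part built in. Taking replicates by their number, the median GRO change of the members from 0 to 30 min was 1.26, 1.53 and 1.52, and the change was above 0 in 57 of 61, 57 of 58 and 56 of 60 members with values. Replicate 1 was hybridized to filter 1 at both times, so its median of 1.26 compares the 2 times on a single filter. On it 49.7% of all spots were above 0. The rule used both of these hybridizations. The corresponding medians of the RNAp ChIP change were 0.00, 0.14 and -0.13. Among the 54 members with all 18 ratios, 40 had 3 GRO values at 30 min above all 3 at 0 min, against a background of 14.4% of spots, and the rule used this contrast. By limma with Benjamini-Hochberg adjustment at 0.05, 18 members passed as higher (background 1.84%), a count that likewise repeats the rule. It was 5 with the replicate number as a block and 42 with the filter as a random block. Those fits called 2.4% and 27% of all spots in either direction, where the main fit called 5.23%.

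To read the pattern in values the rule had not used, the same rule was applied to 2 of the 3 replicates and the third was read on its own. Leaving out replicate 1, 2 or 3 chose 96, 58 or 68 spots, of which 40, 27 and 30 belonged to the 63. In the replicate left out, the run-on change of the chosen spots had a median of 0.57, 0.70 and 0.85, against 0.01, -0.02 and -0.00 over the 5206 spots read. It was above 0 in 77 of 94 (81.9%), 40 of 55 (72.7%) and 53 of 66 (80.3%), where all spots gave 50.7%, 48.9% and 49.9%. The direction of the run-on rise thus carried over to most of the chosen spots, at a smaller size than the threshold that had chosen them.

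The full pattern carried over less often. The unused replicate reached a run-on rise of 1.2 in 24.5%, 23.6% and 34.8% of the chosen spots, against 4.01%, 8.05% and 7.70% of all spots. Its RNAp ChIP change stayed within 0.25 in 40.4%, 38.2% and 28.8% of the chosen spots, while 33.6%, 40.1% and 30.5% of all spots did the same. A flat occupancy in a pair of replicates was thus followed by a flat occupancy in the other about as often as in any spot. Both conditions held in 10, 5 and 6 of the chosen spots (10.6%, 9.09% and 9.09%), against 1.25%, 2.31% and 2.02% of all spots. The 3 readings share hybridizations with each other and no test was made of them.

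**Figure D2:**
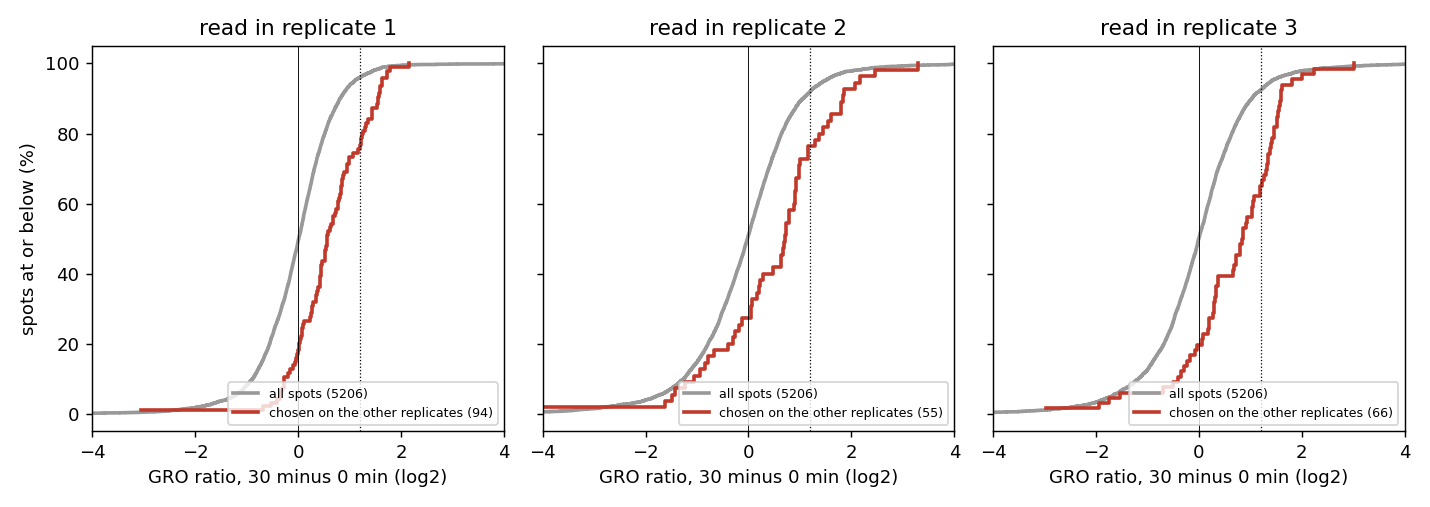
Share of spots (vertical axis, %) at or below each change in the GRO ratio from 0 to 30 min (horizontal axis, log2) in the replicate that the choice did not use, for all 5206 spots in grey and for the 94, 55 and 66 chosen spots in red, with the threshold of 1.2 as a dotted line. The red curves lie to the right of the grey ones over most of their length, with medians of 0.57, 0.70 and 0.85, and most of each red curve lies short of the dotted line.

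By 60 min the members had lost part of the run-on rise. Their median GRO ratio went from -0.87 at 0 min through 0.66 at 30 min to -0.21 at 60 min, and the 3 hybridizations at 60 min gave 0.00, -0.43 and -0.18. These medians lay between those of the 0 min and of the 30 min hybridizations and overlapped neither. The median change from 0 to 60 min was 0.63 (-0.81 to 2.29) against -0.03 over all spots, and from 30 to 60 min it was -0.83 (-3.16 to 0.88) against -0.04. In the median member 40.9% of the rise was left at 60 min. Both comparisons use hybridizations that chose the members, at 0 min where the rule favours low values and at 30 min where it favours high ones, so a partial return is in part built into the choice.

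The members did not all take the same course. At 60 min 45 of 63 lay between their 0 and 30 min means, 11 lay at or above the 30 min mean, and 7 lay below the 0 min mean. A GRO ratio still at least 1.2 above that at 0 min was kept by 18 members (28.6%), against 170 of all spots (3.01%). The spots with the same run-on rise and another occupancy change gave similar figures, with 34 of 130 (26.2%) where occupancy rose and 9 of 35 (25.7%) where it fell, and median changes from 0 to 60 min of 0.71 and 0.82. The median course of the run-on signal was thus similar in the 3 groups. No test was made between these groups, since spots are not replicates. The shares in these groups rest on 0 min values by which the groups were chosen.

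Filter 6 carried run-on RNA at 0 min (replicate 3) and at 60 min (replicate 2) and gives a comparison free of differences between filters. On it the median member was 0.43 higher at 60 min, and 45 of 63 (71.4%) were above 0, while all spots had a median of -0.04 with 46.3% above 0. Only 6 members reached 1.2 on this filter. The 0 min hybridization is among those the rule used.

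Calls for single members at 60 min were few, and in simulated data the GRO fit recovered 0% of changes of 1 on the log2 scale. By limma with Benjamini-Hochberg adjustment over all spots, 0 members were higher in GRO at 60 than at 0 min (background 0.597%), and the smallest adjusted p among them was 0.0568, while 11 of the 130 spots with risen occupancy and 2 of the 35 with fallen occupancy were called. Without adjustment 18 of the 63 had p under 0.05 in that direction, against 6.53% of all spots. Among the 54 members with all ratios, 23 had 3 values at 60 min above all 3 at 0 min (background 10.1%). Between 30 and 60 min 2 members fell by limma after adjustment (background 0.0702%), 22 were lower without adjustment (all spots 6.67%), and 23 of the 54 had 3 values at 60 min below all 3 at 30 min (background 12.5%). The 2 filters that carried run-on RNA at more than 1 time allow a fit with the filter as a random block, which called 14 members higher at 60 than at 0 min and 8 lower at 60 than at 30 min, where it called 13.6% and 3.98% of all spots in either direction. With the replicate number as a block, 0 members were called by limma in both comparisons. The rule favours low values at 0 min and high ones at 30 min. An excess of members higher than at 0 min or lower than at 30 min is thus in part built in.

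Occupancy remained near its starting value in the median member at 60 min, with single members on both sides of it. The rule limited the change at 30 min and set no limit at 60 min, so a wider spread at 60 min is in part built in. The 3 RNAp ChIP hybridizations at 60 min gave member medians of 0.23, 0.19 and 0.05, against 0.14, -0.03 and 0.02 at 0 min. The highest 2 of these 6 values were at 60 min, but the groups overlapped. The median change from 0 to 60 min was 0.05 (-1.14 to 1.57), beside 0.03 over all spots, and from 30 to 60 min 0.05 (-1.22 to 1.76), again beside 0.03. Of the 63 members 30 (47.6%) were still within 0.25 of their 0 min level, 20 (31.7%) were above it and 13 (20.6%) below, and over all spots the shares were 51.0%, 26.4% and 22.6%. At 60 min, the time the rule had not used, the share of flat members was thus no larger than that of all spots. The spots whose occupancy had risen with run-on kept a median change of 0.41 at 60 min, and those where it had fallen had -0.23.

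One member was higher in RNAp ChIP at 60 than at 0 min by limma after adjustment (background 0.875%), and 0 were lower (background 1.48%). Without adjustment limma gave 5 higher and 4 lower, where 7.48% and 6.78% of all spots were higher and lower. Between 30 and 60 min limma called 0 members higher (background 1.36%) and 0 lower (background 0.480%), with 3 and 3 at an unadjusted p under 0.05 (all spots 9.37% and 7.31%) and a smallest adjusted p of 0.0597. Replicates at 60 min stood clear above those at 30 min in 4 of 54 members (background 15.8%) and clear below in 7 (background 12.5%). Replicates at 60 and 0 min did not overlap in 6 of 54 members that were higher (background 9.65%) and in 2 that were lower (background 8.71%). These counts lie near or below the shares over all spots.

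**Figure D3:**
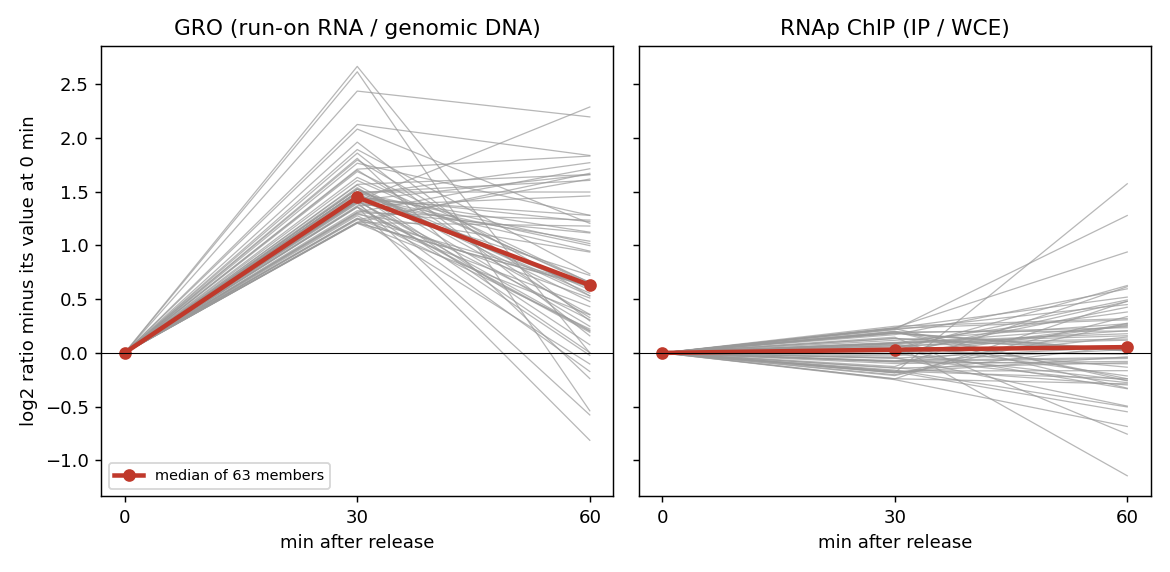
Change since 0 min (vertical axis, log2) in GRO on the left and RNAp ChIP on the right at 0, 30 and 60 min after release (horizontal axis), with 1 grey line for each of the 63 members and their median in red. The GRO median goes from 1.45 at 30 min to 0.63 at 60 min, and the RNAp ChIP median is 0.03 at 30 min and 0.05 at 60 min, when single members spread from -1.14 to 1.57.

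The gap between the assays was tested at 60 min as the change in GRO minus the change in RNAp ChIP. By limma 0 members passed after adjustment between 0 and 60 min (background 0.177% with a higher GRO change and 0.479% with a lower one), with a smallest adjusted p of 0.101. Without adjustment 15 members had p under 0.05 for a higher GRO change, against 5.83% of all spots. Between 30 and 60 min limma again called 0 (background 0%), and 14 were lower in GRO relative to RNAp ChIP without adjustment, against 5.78% of all spots. Both comparisons contain 0 or 30 min values by which the rule chose the members, so an excess over all spots in these directions is in part built in. The course of occupancy was similar in the members that kept a run-on rise of 1.2 and in the others. Of those 18, 9 were flat in RNAp ChIP at 60 min, 6 were above 0.25 and 3 below -0.25. Of the other 45, 21 were flat, 14 above and 10 below.

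Single members show these courses. The spots named by position are the 2 members with the highest GRO change from 0 to 60 min and the 2 with the lowest from 30 to 60 min, among those with all ratios whose replicates at the 2 times compared did not overlap. None of their changes at 60 min passed the test after adjustment.

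The spot R9 - C16 : 12 (rank 40) went on rising. Its GRO ratio was -6.33, -2.80 and -2.59 at 0 min, -2.41, -2.57 and -2.51 at 30 min and -1.42, -1.76 and -1.68 at 60 min. The 3 times did not overlap and followed each other upward, but the first 0 min replicate stood far below the others and gave most of the rise at 30 min. That replicate had a run-on intensity of only 0.576, against 12.4 and 14.2 in the other 0 min replicates and 7.87 to 8.94 at 30 min. The change from 0 to 60 min was 2.29 with a standard error of 0.843 (limma adjusted p = 0.210), and it was 1.08 without that replicate. Its RNAp ChIP ratio was -0.90, -0.99 and -0.07 at 0 min, -0.91, -0.64 and -0.96 at 30 min and -0.31, -0.71 and -0.73 at 60 min, and these times overlapped throughout.

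The spot R14 - C20 : 16 (rank 4) rose early and held its level. Its GRO ratio was -2.34, -4.19 and -2.48 at 0 min, -0.72, -0.90 and -1.02 at 30 min and -0.83, -1.19 and -1.48 at 60 min. All 6 later values lay above all 3 at 0 min, and the 30 and 60 min values overlapped. The change from 0 to 60 min was 1.84 with a standard error of 0.462 (limma adjusted p = 0.0858). Its RNAp ChIP ratio was -1.15, -1.23 and -0.59 at 0 min, -1.31, -1.15 and -0.53 at 30 min and -0.91, -0.44 and -0.35 at 60 min. The overlapping values differed by 0.43 between 0 and 60 min (limma adjusted p = 0.549).

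The remaining positions are those where the run-on signal dropped most after 30 min. R3 - C15 : 10 (rank 47) had GRO ratios of 0.39, 0.62 and -2.12 at 0 min, 0.64, 0.68 and 1.65 at 30 min and -0.57, -3.01 and 0.03 at 60 min. Its rise at 30 min came almost wholly from the third replicate, the other 2 having moved little. In that replicate the run-on intensity was 26.4 at 0 min and 26.3 at 30 min. The genomic DNA intensity under it was 122 on filter 6 at 0 min and 11.4 on filter 4 at 30 min. The ratio of -3.01 at 60 min was also read on filter 6. The part of the denominator in this course was not tested. The change from 30 to 60 min was -2.17 with a standard error of 0.913 (limma adjusted p = 0.343), and -1.26 without replicate 2 at 60 min. RNAp ChIP differed by -0.25 between these times, with 0.52, 0.25 and 0.37 at 30 min and 0.39, 0.13 and -0.11 at 60 min.

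R6 - C24 : 3 (rank 42) was uneven in the same way. Its GRO ratio was 2.03, -0.30 and -1.68 at 0 min, 1.68, 2.07 and 0.52 at 30 min and -0.17, -1.83 and 0.33 at 60 min. The 0 and 30 min values overlapped, and the first replicate did not rise at all. The change from 30 to 60 min was -1.98 with a standard error of 0.930 (limma adjusted p = 0.40), but -0.38 with the mean genomic DNA intensity of all filters as denominator and -0.77 with the filter as a random block. In RNAp ChIP the spot was high at every time, with 0.51, 1.78 and 1.05 at 0 min, 1.11, 1.37 and 1.07 at 30 min and 1.07, 1.14 and 0.73 at 60 min.

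The 3 members with a call at 60 min are singled out after their values were seen. Their GRO replicates at 0 min were closer than those of the spots named by position. At 30 and 60 min the GRO replicates of rank 25 were less close, with SDs of 0.68 and 0.67. The member of rank 48 had the evenest pulse, with GRO ratios of -0.14, -0.32 and -0.07 at 0 min, 1.12, 1.22 and 1.205 at 30 min and -0.00, -0.06 and 0.12 at 60 min. Its 30 min values stood clear of all others and its 60 min values were just above those at 0 min. The change from 30 to 60 min was -1.16 with a standard error of 0.188 (limma adjusted p = 0.0394). With the mean genomic DNA intensity of all filters as denominator that change was -0.65 (limma adjusted p = 0.431). In RNAp ChIP it had 0.19, 0.00 and 0.43 at 0 min, 0.15, 0.43 and 0.30 at 30 min and 0.09, -0.20 and 0.10 at 60 min, with the first 2 times fully overlapping.

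The member of rank 44 gave the same shape from a much lower level. Its GRO ratio was -2.94, -2.63 and -2.87 at 0 min, -1.20, -1.25 and -1.81 at 30 min and -3.18, -2.998 and -2.77 at 60 min. The 60 min values returned to the range around those at 0 min. The change from 30 to 60 min was -1.56 with a standard error of 0.242 (limma adjusted p = 0.0370). With the mean genomic DNA intensity of all filters as denominator that change was -1.62 (limma adjusted p = 0.0712). Its RNAp ChIP ratio was low and overlapped across the times, with -1.55, -1.33 and -1.51 at 0 min, -1.34, -1.19 and -1.32 at 30 min and -1.67, -1.04 and -1.61 at 60 min. Both calls rest on every hybridization compared, since leaving out any one of the 6 at 30 and 60 min left 0 members called, and both were lost with the replicate number as a block (limma adjusted p = 0.141 for each).

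By the times in the descriptions, the member of rank 25 had its highest occupancy at 60 min, after the rise in run-on signal. Its GRO ratio was -1.14, -0.91 and -0.999 at 0 min, 0.12, 0.06 and 1.26 at 30 min and 1.06, 0.64 and -0.25 at 60 min, with no overlap between 0 min and either later time. Its RNAp ChIP ratio was 0.59, -0.21 and 0.02 at 0 min, 0.48, 0.14 and 0.44 at 30 min and 1.42, 1.21 and 1.60 at 60 min. All 3 ChIP values at 60 min lay above all 6 earlier ones, and the change from 0 to 60 min was 1.28 with a standard error of 0.235 (limma adjusted p = 0.0244). The change from 30 to 60 min was 1.06 (limma adjusted p = 0.0597), and that of the GRO ratio from 0 to 60 min was 1.497 (limma adjusted p = 0.115). Without RNAp ChIP replicate 2 or 3 at 0 min, or any one replicate at 60 min, the adjusted p by limma was 0.0567 to 0.0977, while without replicate 1 at 0 min it was 0.0059 with a change of 1.51. Under the times in the sample titles those high ChIP values belong to 30 min, so this order is lost. The change from 0 to 60 min was then 0.22 (limma adjusted p = 0.616). By the times in the descriptions but with the mean WCE intensity as denominator, it was 1.04 (limma adjusted p = 0.525).

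**Figure D4:**
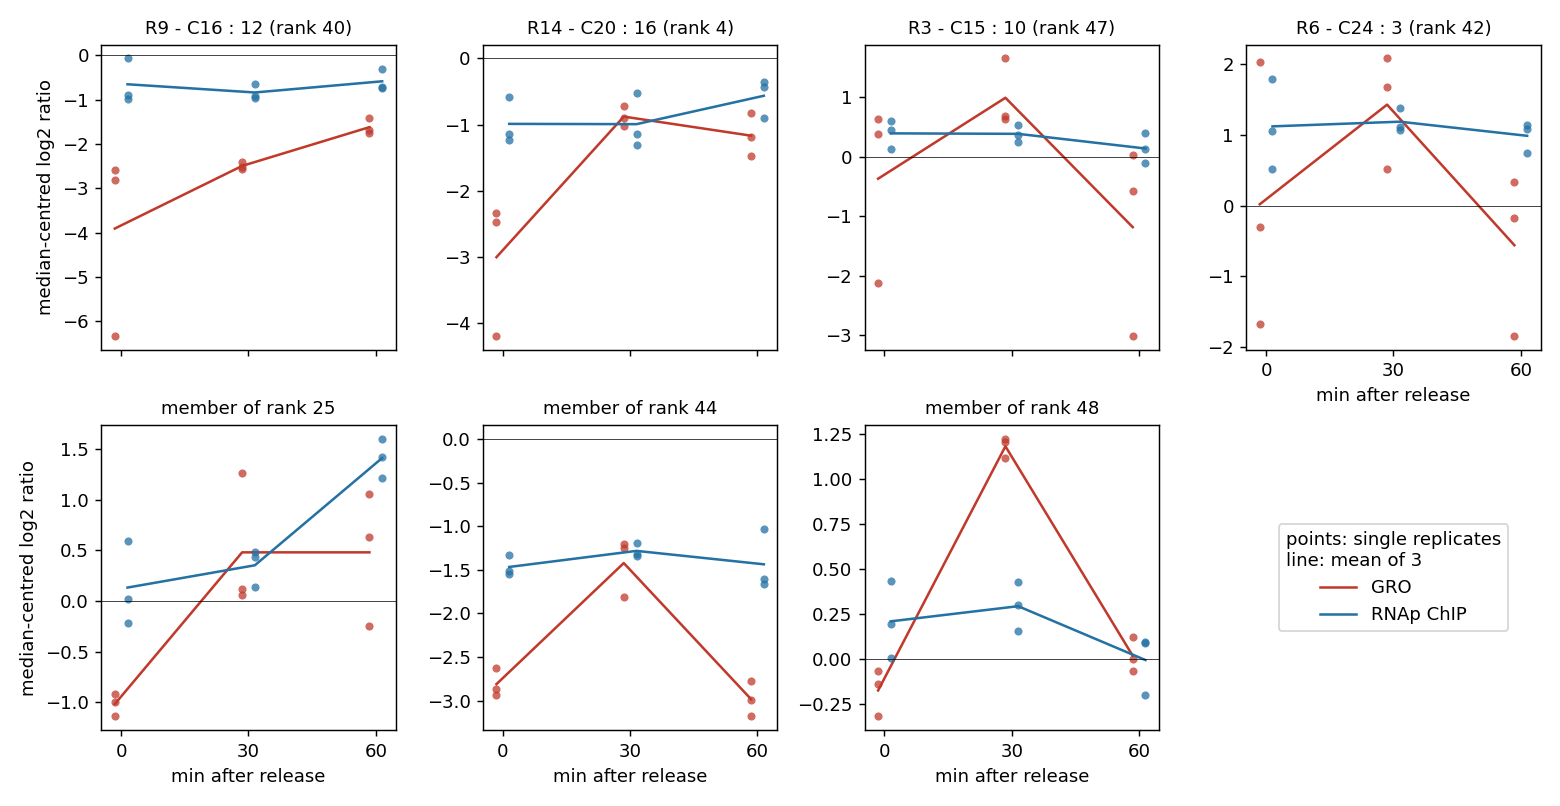
Median-centred log2 ratio (vertical axis) of GRO in red and RNAp ChIP in blue at 0, 30 and 60 min after release (horizontal axis) for the 4 spots named by position and the members of rank 25, 44 and 48, with points for single replicates and lines for the mean of 3. The scale differs between panels, and the spread of the 0 min GRO points in the upper panels contrasts with the tight replicates of ranks 44 and 48.

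The largest rises rested on single hybridizations. The member of rank 1 had GRO ratios of 0.66, 3.40 and 1.03 at 0 min, 1.03 and 7.70 at 30 min with the third missing, and 2.24, 0.90 and 1.95 at 60 min. That of rank 2 had 1.32 and 0.14 at 0 min with the second missing, 2.43, 6.19 and 1.43 at 30 min and 0.90, 0.35 and -0.66 at 60 min. In both the value of replicate 2 at 30 min stood far above the rest and set the size of the mean. The extremes of occupancy were alike in this: the highest RNAp ChIP change from 0 to 60 min, 1.57 at rank 56, came with 60 min values of 0.32, 0.08 and 4.09. The lowest, -1.14 at rank 19, came with -0.23, -1.66 and -1.73 at 60 min against 0.01, -0.79 and 0.60 at 0 min, which overlapped.

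The members were uneven in some properties on which the rule set no limit, although the intensities below are the denominators of its ratios. Dim spots were frequent among them, with 24 (38.1%) in the dimmest 25% of all spots by genomic DNA intensity and 24 (38.1%) in the dimmest 25% by WCE intensity. By genomic DNA the share was 39.2% where occupancy rose with run-on and 48.6% where it fell, so dim spots were frequent among run-on rises of any kind. At low intensity a given error of the background makes a larger change in a log2 ratio, and the part of this in membership was not tested. With the spots in the dimmest 25% by either of these intensities removed 37 members were left, and their median GRO change from 0 to 60 min was 0.94. All spots were also ranked by level and cut into 4 equal classes. In RNAp ChIP at 0 min these classes held, from lowest to highest, 17, 13, 16 and 17 members, which thus spanned the whole range of polymerase occupancy. At 60 min the GRO classes held 24, 11, 10 and 18 members, the ends being fuller than the middle, and the RNAp ChIP classes held 18, 6, 22 and 17.

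Members were also unevenly placed on the filter. The 12 columns on the left held 45 of 63 (71.4%), where 50.0% of the spots with values lie, and columns 3 and 7 held 9 each while 5 columns held none. All 228 spots with a run-on rise leaned the same way, with 153 (67.1%) on the left. The GRO change of all spots from 0 to 30 min had a median of 0.09 in the left columns and -0.10 in the right ones, and the RNAp ChIP change had -0.05 and 0.07. Rows 9 to 16 held 39 members (61.9%), against 49.4% of spots. Within the blocks no place was favoured, with 2 to 6 members at each, and no block held more than 2. Removing the median of each array column from every hybridization gave 60 members, of which 44 belonged to the 63, and removing the median of each block gave 55, of which 24 did. What part of the placement comes from the filters and what part from how genes are laid out on them was not tested.

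**Figure D5:**
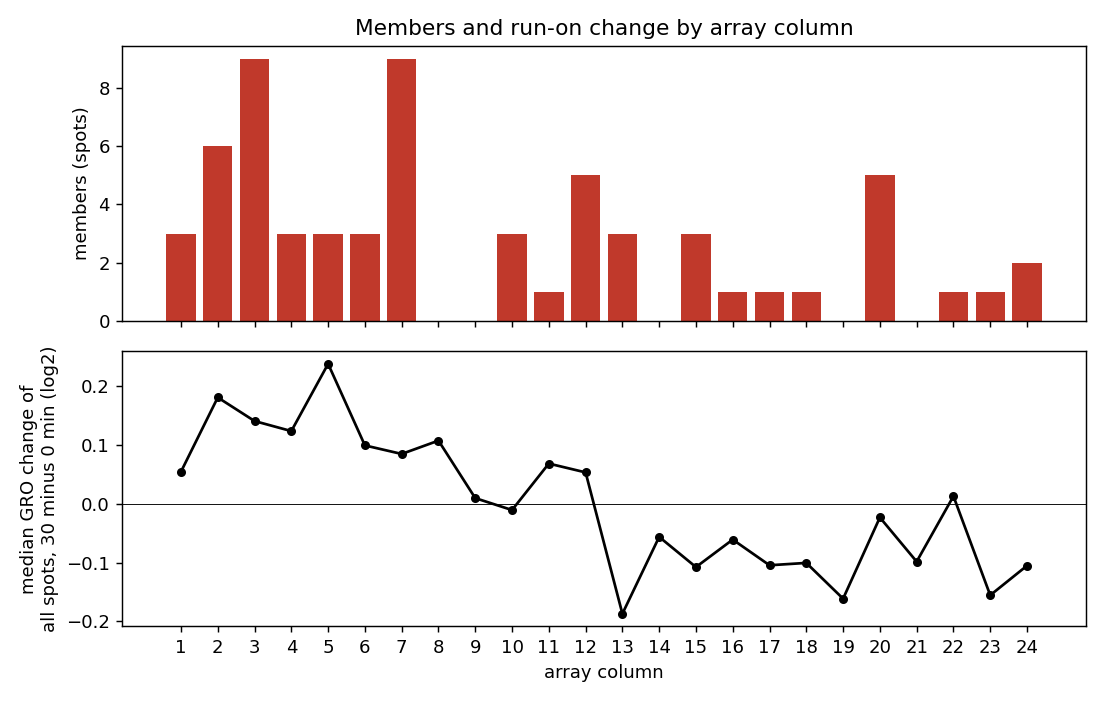
Number of members (upper axis, bars from 0) and median change of the GRO ratio of all spots from 0 to 30 min (lower axis, log2) in each of the 24 array columns. Columns 3 and 7 hold 9 members each, and the median change is 0.09 over the 12 left columns and -0.10 over the 12 right columns.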

How the data were processed

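Run-on RNA (9 hybridizations), genomic DNA (7), IP (9) and WCE (9) were hybridized by the authors to nylon filters with whole-ORF probes, and the deposited values are spot intensities, background-subtracted and not normalized between hybridizations. Before labelling, the ChIP material (IP and WCE) went through ligation-mediated PCR, which can shift relative amounts. A 0 was treated as missing. Log2 ratios (run-on over genomic DNA of the same filter, IP over WCE of the same replicate) were centred on their median, and means needed 2 of 3 replicates. Changes were tested in R 4.3.3 by limma 3.58.1, in one fit of 9 hybridizations per assay or 18 for the interaction, with Benjamini-Hochberg adjustment over all spots at 0.05. Other values came from Python 3.11.15, numpy 2.4.6 and pandas 2.3.3. Residual SDs had a median of 0.303 for RNAp ChIP and 0.40 for GRO, and the number of arrays limits the precision. The fits were tested on simulated data in which 200 of 5142 spots were changed in GRO at 60 min. A log2 change of 1 was recovered in 0% of them at 60 against 0 min, 0% at 60 against 30 min and 3.5% in the interaction. For a change of 2 these shares were 79%, 79% and 73.5%, with 10, 7 and 9 wrong calls. A missing call in GRO thus says little about changes near 1.

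The members, comparison groups and rules for naming spots were chosen with earlier results of these data known. Spots named by position had the highest GRO change from 0 to 60 min or the lowest from 30 to 60 min, among members with all 18 ratios and no overlap. The files pair no spot with a gene, so no gene, gene list or sequence is given. The labels do not say that replicates were separate cultures, nor what a shared number means, so p-values measure the spread between these hybridizations. Same-numbered GRO replicates at 0 and 30 min deviated together (r = 0.509, with both on filter 1, then 0.129 and 0.172), all above 0.1. The main limma fits nevertheless did not pair replicates, and the fit with the replicate number as a block was an alternative. At least one pair was below 0.1 in every other comparison. Alternatives were another denominator, quantile normalization, no dim spots, other thresholds, the times in the sample titles, fits with a replicate block or a filter block, fits of 2 times, removal of array column or block medians (added after the data were seen), and leaving out each hybridization.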

Additional observations from a re-analysis of the deposited data

How the results depend on the processing

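The number of members changed with the rule's thresholds and with the denominator. The rule was met by 113 spots with a GRO threshold of 1.0, 23 with 1.5 and 36 with a RNAp ChIP limit of 0.15. With the mean genomic and WCE intensity as denominator 26 spots met it, 8 of them among the 63. Without the spots in the dimmest 25% by genomic DNA or by WCE intensity 37 met it. With 1 hybridization left out the number was 52 to 100 (100 without GRO 30 min replicate 1). The median GRO change from 0 to 60 min was 0.86 with the mean denominator, 0.94 without dim spots and 0.57 to 1.01 with 1 hybridization left out (1.01 without GRO 0 min replicate 3). That from 30 to 60 min was -0.94 to -0.51. In RNAp ChIP the median change from 30 to 60 min was -0.26 with the mean denominator and 0.16 under the titles of the samples, and 0.01 to 0.09 with 1 hybridization left out. From 0 to 60 min it was 0.02 to 0.14.

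Calls by limma were unstable, and each count below is over the spots that met the rule under that setting. For GRO at 60 against 0 min, members called numbered 8 without dim spots, 2 among spots with all 3 replicates or with array block medians removed, 1 under the titles, quantile normalization or column medians removed, 14 with the filter as a random block, and 0 to 4 with 1 hybridization left out (4 without GRO 0 min replicate 3). For GRO at 60 against 30 min they numbered 0 with the mean denominator, with column or block medians removed, in a fit of 2 times and with the replicate block, 8 with the filter block, and 0 to 3 with 1 left out (0 also without GRO 0 min replicate 2, 1 without GRO 0 min replicate 3 or RPCC 0 min replicate 2). For RNAp ChIP at 60 against 0 min there were 6 under the titles, 0 in a fit of 2 times, 0 with column or block medians removed, and 0 to 1 with 1 left out. With those medians removed (adjusted p = 0.0115 and 0.0127), and without RPCC 0 min replicate 1, RPCC 30 min replicate 2 or GRO 30 min replicate 3 (adjusted p = 0.0059, 0.0345 and 0.0244), the spot of rank 25 passed the test but no longer met the rule. For RNAp ChIP at 60 against 30 min there were 4 under the titles, 1 with the mean denominator, without dim spots, with all 3 replicates, under quantile normalization or in a fit of 2 times, and 0 to 1 with 1 left out. For the interaction there was 1 with block medians removed, and 0 to 3 with 1 left out (3 without GRO 0 min replicate 3, 1 without RPCC 0 min replicate 3). The replicate block changed no other call of a member at 60 min. In GRO at 0 and 30 min the shared numbers gave r above 0.1, but not every replicate correlated best with its own number. Each GRO replicate at 30 and 60 min did so, at r of only 0.0086 to 0.020. For GRO at 0 and 60 min r was 0.116, -0.292 and -0.379. RNAp ChIP showed no pairing by number. Over all alternatives the adjusted p ran from 0.0059 to 0.616 at rank 25, from 0.00501 to 0.141 at rank 44 and from 0.00743 to 0.431 at rank 48.

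Among the single spots, directions turned only in small RNAp ChIP changes that had no call. For R9 - C16 : 12 from 0 to 60 min the change was -0.19 under the titles, -0.06 and -0.10 without RPCC 0 min replicates 1 and 2, and -0.07 without RPCC 60 min replicate 1, in a range of -0.10 to 0.36 with 1 hybridization left out. For R14 - C20 : 16 it was -0.0041 under the titles. From 30 to 60 min it was 0.25 for R3 - C15 : 10 and 0.20 for R6 - C24 : 3 under the titles, and 0.0446 for R6 - C24 : 3 with column medians removed. The cause was not tested for any of these. R14 - C20 : 16 passed in GRO from 0 to 60 min without dim spots (adjusted p = 0.0246) and with the filter block (adjusted p = 0.0121).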
